A study of Mus musculus with 30 samples.

Results

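The wild type (WT) aorta was compared between day 42 and day 7 after periaortic application of 0.5 M CaCl2, a chemical injury used in mice to produce an abdominal aortic aneurysm. The comparison holds 6 of the 30 arrays of the study, 3 WT CaCl2 day 42 arrays and 3 WT CaCl2 day 7 arrays, chosen by their titles alone. The whole study covered WT mice and uMT mice, a B cell-deficient line that cannot make the membrane form of the immunoglobulin mu heavy chain. Each genotype had 5 groups of 3 arrays: CaCl2 at day 42 and at day 7, sham surgery with saline at day 42 and at day 7, and aortas taken before any surgery (pre). The other groups used here are uMT CaCl2 day 42 and day 7, WT sham day 42 and day 7, and WT pre. All mice carry the strain label C57BL/6, and all arrays carry the tissue label abdominal aortic aneurysm, also those of sham and pre aortas. Age, sex and whether each array was hybridised with the RNA of 1 mouse are not given in the sources used here, so the p-values measure the spread between samples, which may be technical in part. Total RNA was labelled with Cy3 and hybridised to 60-base probes of an Agilent mouse array.

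Levels are log2 signals relative to the 75th percentile of all probes on the same array, so a level of 0 is the signal at that percentile and each unit is a doubling. Levels of different probes were not set against each other. A gene is called higher or lower at day 42 where limma's moderated test, adjusted by Benjamini-Hochberg over all 23267 genes, gave an adjusted p under 0.05. Each standard error (SE) and p-value rests on 1 spread per gene or probe. That spread was shared by all groups of the fit and not taken from the 6 arrays alone. All 6 arrays lay on 1 slide, with the 3 day 42 arrays in its second row and the 3 day 7 arrays in its first row, so slide row and time cannot be told apart. Probes well above background made up 58.0%, 61.6% and 50.6% of all on the day 42 arrays, against 60.2%, 58.4% and 61.8% on the day 7 arrays. Day 42 replicate 3 was thus the dimmest of the 6, and the day 42 arrays were the more variable, with a median SD per gene of 0.281 against 0.203 at day 7. Smooth muscle genes marked the tissue at both times. Acta2, the smooth muscle actin, had levels of 8.86, 8.27 and 7.73 at day 42, against 8.21, 7.04 and 7.30 at day 7. Among the uMT CaCl2 arrays, leaving out day 7 replicate 1 moved the genotype count most, and its effect is given with the genotype comparison. Its mean correlation with its group mates was 0.969, against 0.976 and 0.973 for replicates 2 and 3.

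Immunoglobulins are the antibody proteins of B cells and plasma cells. A heavy chain and a kappa or lambda light chain are each encoded by a variable segment joined to a constant region, and the constant region of the heavy chain sets the antibody class, mu and delta first and gamma after class switching. Calcium injury of the periaortic tissue is followed by inflammation, loss of elastic fibres and scarring, in which fibroblasts lay down collagen and matricellular proteins. Bulk tissue RNA does not separate these cells, so fewer cells of a type and less RNA per cell cannot be told apart in any result here.

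The probes below are shown because immunoglobulin features made up a large share of the called rises. They are the array's own sequences, placed on the mouse genome build mm9, and are written 5′ to 3′. Capitals mark the match to TANTANTGN, a conserved codon pattern near the 3′ end of variable segments.
gamma polypeptide, heavy chain constant, chr12:114544738-114544797, minus strand: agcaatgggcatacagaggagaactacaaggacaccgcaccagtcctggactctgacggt
heavy chain 1, serum IgG2a, constant, chr12:114525600-114525659, minus strand: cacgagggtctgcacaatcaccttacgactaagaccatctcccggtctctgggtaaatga
heavy constant gamma 1, chr12:114568594-114568653, minus strand: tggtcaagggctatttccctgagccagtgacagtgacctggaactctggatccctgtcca
heavy constant mu, chr12:114659630-114659689, minus strand: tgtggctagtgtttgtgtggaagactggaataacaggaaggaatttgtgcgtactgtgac
kappa constant, chr6:70676692-70676751, plus strand: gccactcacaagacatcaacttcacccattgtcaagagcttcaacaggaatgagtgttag
heavy variable V14-3, chr12:115298056-115298115, minus strand: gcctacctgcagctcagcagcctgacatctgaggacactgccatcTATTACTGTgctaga
kappa variable 12-46, chr6:69714517-69714576, minus strand: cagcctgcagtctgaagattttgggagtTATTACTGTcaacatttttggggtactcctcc

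The pattern was found in 20 of the 65 measured features described as variable (30.8%) and in 0 of the 11 described as constant. Among all 33224 measured probes the share was 2.18%, read on both strands. A match describes the letters only. Of the 78 measured immunoglobulin probes, 31 share a run of at least 20 bases with another of them, so their signals are not independent and a variable feature may also bind related segments.

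At day 42, 170 of 23267 genes were higher and 56 were lower than at day 7, which is 0.731% and 0.241% of the genes tested. The median change over all genes was 0.0025 log2 units. All 56 lower genes and 169 of the 170 higher genes had no overlap between the 3 day 42 and the 3 day 7 arrays, against 11.1% of all genes with no overlap and day 42 higher and 11.5% with no overlap and day 42 lower. Of the 170 higher genes, 49 were described as immunoglobulin genes and another 21 lay inside the immunoglobulin gene spans without such a description. A further 84 had a RefSeq symbol elsewhere, and the remaining 16 were other features. The counts depended on the other arrays of the study for the estimate of spread: a fit of the 6 arrays alone called 79 genes higher and 23 lower. Leaving out 1 of the 6 arrays gave 80 to 169 genes higher and 15 to 110 lower, with 80 and 15 when day 42 replicate 3 was left out.

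**Figure D1:**
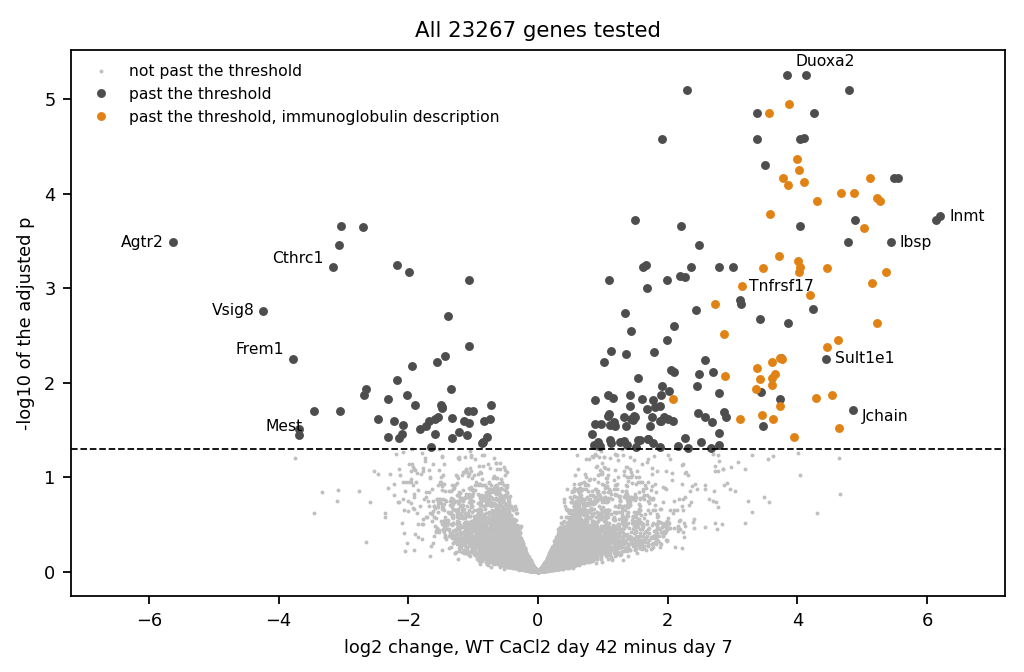
Change of each gene between WT CaCl2 day 42 and day 7 (log2 units, day 42 minus day 7) against -log10 of its limma adjusted p, with a dashed line at the threshold, dark points for genes past it and orange points for those described as immunoglobulin genes. The 170 higher genes include 49 described as immunoglobulin genes, and none of the 56 lower genes is one.

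Immunoglobulin RNA was higher at day 42 in each of the heavy, kappa and lambda chains. The array holds 148 features described as immunoglobulin heavy, kappa or lambda chain, of which 78 passed the filter of being well above background on all 3 arrays of some group. Of these 78 features, 51 were higher and 0 lower at day 42, against 0.548% of all probes higher and 0.211% lower at the probe level. In 69 of the 78 the day 42 arrays lay above all day 7 arrays, against 10.5% of all probes. The median change was 3.62 log2 units, with a range of -0.53 to 5.36. Without day 42 replicate 3, the array with the highest immunoglobulin signal, 30 features were called, and the fit of the 6 arrays alone called 8. Many features passed the filter through the day 42 group itself, so a difference in that direction was built into part of the set.

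The median level over the 78 features was -1.67, -0.66 and 1.21 on the 3 day 42 arrays, against -4.23, -3.65 and -3.74 on the day 7 arrays. Every day 42 array was above every day 7 array. Of the 78 features, 78, 77 and 76 were well above background on the day 42 arrays, against 46, 54 and 63 on the day 7 arrays. In WT pre aortas the number was 19, 25 and 18, and on the uMT CaCl2 day 42 arrays it was 14, 16 and 17. Since 76 of the 78 features were well above background on all WT day 42 arrays, and most could pass the filter through that group, these counts are a description.

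**Figure D2:**
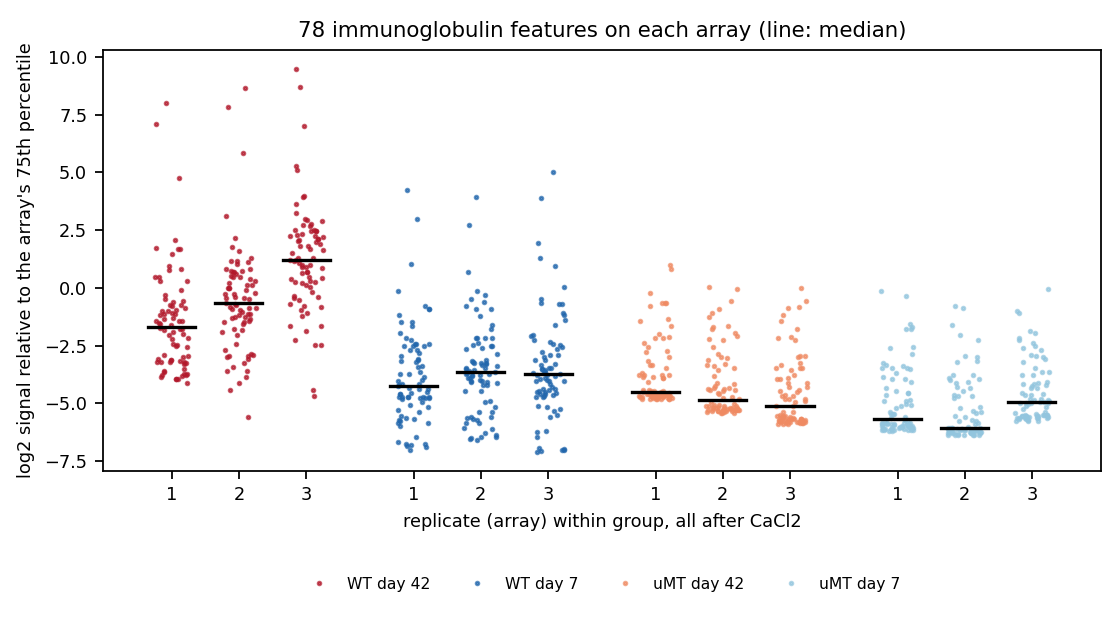
Level of the measured immunoglobulin features on each array (log2 units relative to the array's 75th percentile), in WT and uMT CaCl2 aortas at day 42 and at day 7. Points are the 78 features, the black line is their median, and the groups stand in the order WT day 42, WT day 7, uMT day 42 and uMT day 7. The median levels on the 3 WT day 42 arrays, -1.67, -0.66 and 1.21, all lie above the day 7 medians of -4.23, -3.65 and -3.74.

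By chain, 19 of 25 heavy chain features were higher, with a median change of 3.85, as were 30 of 48 kappa features, with a median of 3.61. Of the 5 lambda features 2 were higher, with a median of 2.27. By region as described, 45 of 65 variable features and 5 of 11 constant features were higher. Features described as J558 variable chains at chr12:114496985-114497044, chr12:114497090-114497149 and chr12:114498348-114498407 lie beyond the serum IgG2a constant probes, away from the other variable segments. Their region, and so these counts, are uncertain. The probe at chr12:114498348-114498407 had a change of 4.63 ± 0.82 that passed (limma adjusted p over all probes 0.0042). The probes at chr12:114496985-114497044 and chr12:114497090-114497149 had changes of 4.31 and 4.67 without overlap. Neither passed (limma adjusted p over all probes 0.260 and 0.171). Their SDs were 0.72 and 0.81 at day 42, but 5.10 and 4.62 in WT pre aortas, which enter the same estimate of spread. The called features thus carried descriptions of both light chain and heavy chain genes. Since a probe may bind related segments, the number of variable segments expressed cannot be read from these counts.

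Constant region probes of several classes were measured, with p-values for immunoglobulin features adjusted over all probes. The gamma polypeptide probe had levels of 0.29, 0.11 and 2.73 at day 42, against -3.84, -3.76 and -4.64 at day 7. The groups did not overlap, and the change was 5.12 ± 0.63 (SE; limma, adjusted p over all probes 8.62e-05). The serum IgG2a probe shown above had levels of 0.28, -0.44 and 5.10 at day 42, against -2.84, -2.19 and -3.63 at day 7, with day 42 replicate 3 far above replicates 1 and 2. Its change was 4.53 ± 0.93 (limma adjusted p = 0.0158), and its SD was 3.01 at day 42 and 0.72 at day 7. A second serum IgG2a probe, chr12:114525496-114525555, had levels of 1.47, 0.80 and 5.25 at day 42, against -2.41, -2.17 and -3.99 at day 7. Its change of 5.36 ± 0.82 was the largest of the immunoglobulin features (limma adjusted p = 8.23e-04). The SD of this second probe was 2.40 at day 42 and 0.99 at day 7. For both probes the SE, drawn from all groups, does not show the width at day 42.
The gamma 1 probe at chr12:114568594-114568653 had levels of -3.72, -4.42 and -0.40 at day 42, and no day 7 array was well above background there. Day 42 was at least 3.56-fold higher, a bound set against the lowest signal well above background on each day 7 array (limma adjusted p = 0.0026). A second probe of the gene, chr12:114567263-114567322, was well above background on 2 of 3 day 7 arrays. Its levels were -0.48, -3.08 and 0.20 at day 42, against -5.85, -3.14 and -4.50 at day 7, a change of 3.37 ± 0.64 (limma adjusted p = 0.0084). Day 42 replicate 2 was barely above day 7 replicate 2 there.
The mu constant probe, the class made before switching, had levels of 0.75, -0.02 and 2.91 at day 42, against -0.12, -0.62 and -0.50 at day 7. Its day 42 arrays also lay above all day 7 arrays, but the change of 1.63 ± 0.52 did not pass (limma adjusted p = 0.183). The delta constant probe had levels of -0.57, -1.12 and 0.02 at day 42, against -1.47, -0.79 and -0.71 at day 7, and its groups overlapped. The difference between the gamma and the mu change was not tested. On the uMT CaCl2 arrays the mu probe was well above background at both times. Its mean there was -0.42 at day 42, against -0.41 in WT at day 7. The delta probe was well above background on all 3 uMT CaCl2 day 42 arrays, with a mean of -1.55. Both probes thus carry signal in the B cell-deficient line too, and its source was not tested.

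Among the light chains, the kappa constant probe had levels of 4.76, 5.82 and 7.02 at day 42, against 1.03, 0.67 and 1.94 at day 7. These groups were well separated, yet the change of 4.65 ± 1.18 did not pass (limma adjusted p = 0.0750). Its SD was 1.13 at day 42 and 0.65 at day 7, but 3.37 in WT pre aortas, which enter the same estimate of spread. Neither lambda constant gene passed, with changes of 2.27 for lambda constant 2 (limma adjusted p = 0.104) and 2.22 for lambda constant 3 (limma adjusted p = 0.223).
Among the variable segments, which form the antigen-binding site, the called features had the following levels. Heavy variable V14-3 had levels of 0.49, 0.50 and 2.47 at day 42, against -2.70, -2.64 and -2.79 at day 7, a change of 3.86 ± 0.40 (limma adjusted p = 1.52e-05). Kappa variable 12-46 had levels of -1.71, 0.49 and -1.66 at day 42 and was well above background on no day 7 array, which makes day 42 at least 13.1-fold higher (limma adjusted p = 0.0027). Only 1 feature had a negative change, heavy variable V1-63 at -0.53 (limma adjusted p = 0.736).

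Within the heavy chain span, chr12:114496985-117247905, another 33 measured probes carry no immunoglobulin description, being annotated as predicted genes and the like. Of these 33, 19 were higher and 0 lower at day 42, against 0.548% and 0.211% of all probes, and their median change was 2.79. In the kappa span, chr6:67505984-70690548, 1 of 6 such probes was higher, against the same 0.548%. These probes too could pass the filter through the day 42 group itself, so the counts are a description.

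Outside these spans, 2 transcripts of antibody-secreting cells were also higher. They came from a list of 15 measured immunoglobulin and plasma cell genes, in which 2 passed upward and 0 downward, against 0.731% and 0.241% of all genes. The median change was -0.07, and 8 of 15 changes were negative. In 6 members every day 42 array lay above every day 7 array, against 11.1% of all genes. In 4 members every day 42 array lay below, against 11.5%. Jchain, the joining chain that links antibodies into polymers (chr5:88949919-88949978), had levels of 4.44, 5.27 and 6.85 at day 42, against 0.38, 0.31 and 1.29 at day 7. The change was 4.86 ± 1.04 (limma adjusted p = 0.0196). The call was lost when any 1 day 7 array or day 42 replicate 3 was left out, with adjusted p up to 0.182. Tnfrsf17, the BCMA receptor of plasma cells, had levels of -3.36, -2.94 and -1.37 at day 42 and was well above background on no day 7 array. Day 42 was at least 4.34-fold higher (limma adjusted p = 0.0013).
Other members did not pass. Mzb1, an endoplasmic reticulum chaperone of antibody-making cells, had a change of 2.02 ± 0.80 (limma adjusted p = 0.308), and Pou2af1, a B cell coactivator, one of 1.77 ± 0.57 (limma adjusted p = 0.169). Fkbp11, a chaperone of the secretory pathway, had a change of -0.85 (limma adjusted p = 0.0763), Edem1, which helps degrade misfolded proteins, one of -0.75, and Xbp1, a secretory cell transcription factor that many cell types use, one of -0.13.
Of the 16 measured markers of B cells, limma called 0 in either direction, and their median change was 0.10. Ms4a1, which encodes CD20, had levels of -1.56, -2.42 and -0.73 at day 42, against -2.04, -2.29 and -1.39 at day 7. The groups overlapped, and the gene was well above background on all 6 arrays.

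The largest rise among genes with a RefSeq symbol was that of Inmt, an enzyme that methylates indole amines (chr6:55120770-55120829). Its levels were 5.40, 5.13 and 7.46 at day 42, against 0.69, 0.41 and -1.73 at day 7, a change of 6.21 ± 0.84 (limma adjusted p = 1.73e-04). The mean in WT pre aortas was 5.26. Ibsp, the bone sialoprotein of mineralised tissue (chr5:104740413-104740472), had levels of 2.76, 1.03 and -2.53 at day 42 and was well above background on no day 7 array, so that day 42 was at least 32.8-fold higher (limma adjusted p = 3.29e-04). Its day 42 arrays were widely spread, with replicate 3 the lowest.
Duoxa2, a maturation factor of a hydrogen peroxide-producing oxidase (chr2:122128268-122128327), was at least 3.8-fold higher, with levels of -3.06, -2.72 and -2.47 at day 42 and none well above background at day 7 (limma adjusted p = 5.54e-06). Sult1e1, which sulphates oestrogens, had a change of 4.44 ± 0.83, with levels of -1.72, -1.13 and -1.34 at day 42, against -4.45, -5.98 and -7.10 at day 7. At levels like those of day 7 replicates 2 and 3, other probes were not well above background, so its size is uncertain. Over the alternatives the Sult1e1 change ran from 1.19 to 5.14.
Rspo1, a secreted enhancer of Wnt signalling, had levels of 0.98, 0.53 and 1.98 at day 42, against -1.30, -1.30 and -1.36 at day 7. Its change was 2.49 ± 0.36 (limma adjusted p = 3.51e-04). It was the only 1 of 29 measured Wnt and hedgehog regulators that passed, against 0.731% of all genes higher.
The other named rises were between 2.49 and 2.9 log2 units. They were Vit, an extracellular matrix protein, Cnr1, the cannabinoid receptor CB1, Arhgap36, Tmigd1, Ciart, Tcap, a muscle protein, Pappa2, a protease of insulin-like growth factor binding proteins, and Il23r, the interleukin 23 receptor, which was at least 3.68-fold higher. Tcap passed in 6 of 20 alternative analyses and Ciart in 7 of 20, so these rested on narrow margins. Inmt, Rspo1, Arhgap36 and Duoxa2 passed in each alternative in which they were measured.

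**Figure D3:**
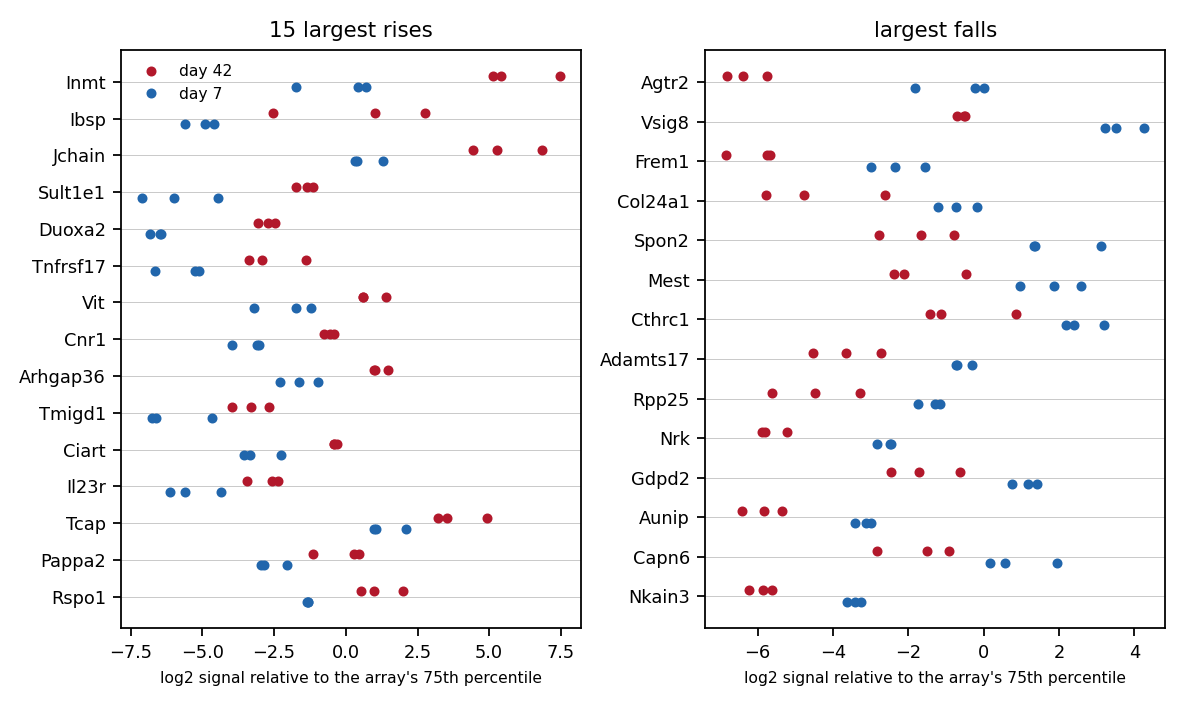
Level of the 15 genes with the largest rises (left) and of genes with the largest falls (right) on each WT CaCl2 array (log2 units relative to the array's 75th percentile), with the day 42 points drawn above the day 7 points of each gene. Inmt had 5.40, 5.13 and 7.46 at day 42 against 0.69, 0.41 and -1.73 at day 7, and Vsig8 had -0.70, -0.49 and -0.52 at day 42 against 3.23, 4.25 and 3.52 at day 7.

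The largest fall was that of Agtr2, the angiotensin II type 2 receptor (chrX:21065564-21065623). Its levels were -6.38, -6.82 and -5.74 at day 42, where no array was well above background, against -1.83, 0.00 and -0.23 at day 7. Day 42 was at least 10.9-fold lower (limma adjusted p = 3.29e-04), and the WT pre mean was -6.47. Vsig8, a membrane protein of the immunoglobulin superfamily but not an antibody gene (chr1:174493788-174493847), had levels of -0.70, -0.49 and -0.52 at day 42, against 3.23, 4.25 and 3.52 at day 7. The change was -4.24 ± 0.71 (limma adjusted p = 0.0017).
Cthrc1, a protein secreted by activated fibroblasts (chr15:38918358-38918417), had levels of -1.43, 0.84 and -1.14 at day 42, against 2.40, 2.17 and 3.19 at day 7. Its change was -3.16 ± 0.48 (limma adjusted p = 6.01e-04). Mest, an imprinted gene of growing mesenchyme, had levels of -2.10, -0.48 and -2.39 at day 42, against 0.97, 1.85 and 2.57 at day 7, a change of -3.46 ± 0.74 (limma adjusted p = 0.0199). The Mest call was lost in 4 of 6 analyses that left out 1 array, with adjusted p up to 0.169 without day 42 replicate 3.
Spon2, a secreted matrix protein, Col24a1, a fibrillar collagen, Adamts17, a secreted protease, and Rpp25 had changes of -3.68, -3.69, -3.06 and -3.06. A second Adamts17 probe had a change of -1.38 that did not pass (limma adjusted p over all probes 0.248). Gdpd2 and Capn6 had changes of -2.71 and -2.65. For 4 genes that were well above background on no day 42 array only bounds can be given: Frem1, a basement membrane protein, was at least 3.54-fold lower, Nrk at least 2.88-fold, Aunip at least 1.92-fold and Nkain3 at least 1.61-fold. Spon2 passed in 10 of 20 alternative analyses and Col24a1 and Nkain3 in 11 of 19 each, whereas Agtr2, Vsig8, Adamts17 and Nrk passed in each that measured them.

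Genes of the extracellular matrix that scars are made of were among the falls. Of 27 measured matricellular and wound repair genes 2 passed downward and 0 upward, against 0.241% and 0.731% of all genes. Their median change was -0.50, against 0.0025 for all genes. The 2 that passed were Cthrc1 and Postn, the periostin of healing connective tissue. Postn levels were 3.86, 4.36 and 3.23 at day 42, against 5.92, 5.89 and 6.15 at day 7. The Postn change of -2.17 ± 0.33 passed in 20 of 20 alternatives (limma adjusted p = 5.73e-04). Of 24 measured collagens 2 were lower, Col24a1 and Col16a1, against 0.241% of all genes. A negative change was seen in 22 of 24, with a median of -0.59. Over the alternatives 0 to 8 collagens were lower, and Col16a1 passed in 10 of 20. Col16a1 had levels of 5.08, 5.60 and 4.57 at day 42, against 6.34, 6.01 and 6.19 at day 7.
The abundant fibrillar collagens did not pass. Col1a1 had levels of 7.91, 8.29 and 7.74 at day 42, against 8.25, 8.40 and 8.09 at day 7, and Col3a1 had a change of -0.36 (limma adjusted p = 0.525).
Of 23 elastic fibre and proteoglycan genes, 2 were lower, both microfibril-associated, against 0.241% of all genes. Mfap4 had levels of 3.10, 3.02 and 3.14 at day 42, against 5.26, 4.76 and 5.08 at day 7. Mfap2 had levels of 3.48, 4.18 and 3.52 at day 42, against 5.17, 4.97 and 5.18 at day 7. The changes were -1.95 ± 0.37 and -1.38 ± 0.23. Eln, which encodes elastin itself, had levels of 1.71, 2.98 and -0.30 at day 42, against 3.51, 2.9 and 3.32 at day 7, and did not pass (limma adjusted p = 0.317).
Among 29 matrix proteases and inhibitors 1 was lower, against 0.241% of all genes. It was Mmp14, a membrane-anchored collagenase, with levels of 1.56, 1.78 and 0.82 at day 42, against 2.70, 2.69 and 3.27 at day 7. The gelatinase Mmp9 had levels of -2.41, -2.55 and -2.23 at day 42, against -1.13, -0.58 and 2.48 at day 7. These groups did not overlap, but the change of -2.65 ± 1.39 did not pass (limma adjusted p = 0.482). Mmp2 had a change of -0.08 and the collagenase Mmp13 one of -1.91, and neither passed. Of 22 collagen processing genes, Colgalt1, a collagen galactosyltransferase, had a change of -0.79 that passed, though in 9 of 20 alternatives only, and Pcolce2, an enhancer of procollagen cleavage, was higher by 1.80.

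In the cell cycle list 1 member passed, downward, against 0.241% of all genes lower. Of 24 measured members 24 had a negative change and 20 had every day 42 array below every day 7 array, against 11.5% of all genes, and the median change was -1.46. The member that passed was Cdk1, the kinase that drives entry into mitosis (chr10:68801072-68801131), with levels of -2.09, -1.18 and -2.43 at day 42, against 0.15, -0.22 and 0.40 at day 7. Its change was -2.01 ± 0.41 (limma adjusted p = 0.0135), and the call was lost in 4 of 6 analyses that left out 1 array. Other Cdk1 probes had changes of -1.86 and 0.82, and neither passed (limma adjusted p over all probes 0.0747 and 0.684). Over the alternatives the number of members lower ran from 0 to 13.
Among mitotic members, the kinesin gene Kif20a had a change of -1.99, the cyclin gene Ccna2 -1.96 and the topoisomerase gene Top2a -1.93, none past the test. The replication genes Pcna, Mcm6 and Tyms had changes of -0.34, -0.16 and -0.01. Outside the list, and chosen after their values were seen, the mitotic kinase Nek2 had a change of -2.17 (limma adjusted p = 0.0094), and Ckap2l one of -2.31 that also passed.
The 150 bases before the start of Cdk1 in the RefSeq promoter table (build GRCm38.p6) are shown as those of the called member. Capitals mark TTTGAA, a cell cycle gene element, and CCAAT, read here as ATTGG.
Cdk1, chr10:69352913-69353062, minus strand: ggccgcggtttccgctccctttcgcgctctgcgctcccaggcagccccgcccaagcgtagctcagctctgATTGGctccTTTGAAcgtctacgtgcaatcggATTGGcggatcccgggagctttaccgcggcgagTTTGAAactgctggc
The window holds TTTGAA 2 times and CCAAT 2 times on either strand. In promoters of the cell cycle list TTTGAA occurred in 11 of 21 (52.4%), against 17.9% of all 32851 promoters, and CCAAT in 18 of 21 (85.7%), against 37.4%. These shares describe the list's promoters and not the change between times.

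Complement, the cascade of plasma proteins that tags and lyses targets, held more higher members than any other of the 35 gene lists. Of 22 measured genes 5 passed upward and 0 downward, against 0.731% and 0.241% of all genes. Their median change was 0.55. C3, the central component (chr17:57343416-57343475), had levels of 9.31, 9.34 and 9.77 at day 42, against 7.04, 7.28 and 7.46 at day 7. Its change was 2.21 ± 0.31 (limma adjusted p = 2.18e-04). C4b, of the classical pathway, had levels of 7.06, 7.12 and 7.47 at day 42, against 5.75, 5.66 and 5.39 at day 7, a change of 1.62 ± 0.25. Neither gene's groups overlapped, and both passed in 20 of 20 alternatives. C2, of the classical pathway too, was higher by 0.98 and C1ra, a protease that starts it, by 0.89. The terminal components C6 and C7 had changes of 2.46 and 2.74 that did not pass (limma adjusted p = 0.134 and 0.0852), and the receptor gene C3ar1 had a change of -0.90. Over the alternatives 2 to 9 members were higher.

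Of 19 measured circadian clock genes 2 passed upward and 0 downward, against 0.731% and 0.241% of all genes. Their median change was 0.65. Dbp, a clock output transcription factor, had levels of 6.10, 5.95 and 6.66 at day 42, against 4.82, 3.80 and 3.77 at day 7, a change of 2.11 ± 0.41 (limma adjusted p = 0.0078). Ciart, a repressor within the clock, had levels of -0.42, -0.39 and -0.31 at day 42, against -2.26, -3.34 and -3.55 at day 7, a change of 2.67 ± 0.65 (limma adjusted p = 0.0490). The core activator Arntl had a change of -0.87 and the repressor Nr1d1 one of 2.58, neither past the test. The hour of tissue collection is not given in the sources used here, so time of day and time after surgery cannot be told apart. The promoter of Ciart is shown with CACGTG, the E-box that clock activators bind, in capitals.
Ciart, chr3:95882229-95882378, minus strand: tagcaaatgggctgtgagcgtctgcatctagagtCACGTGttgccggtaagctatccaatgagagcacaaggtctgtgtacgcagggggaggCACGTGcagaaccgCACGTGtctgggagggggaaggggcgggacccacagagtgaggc
The window holds CACGTG 3 times. It occurred in 6 of 21 promoters of the clock list (28.6%), against 7.15% of all promoters.

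**Figure D4:**
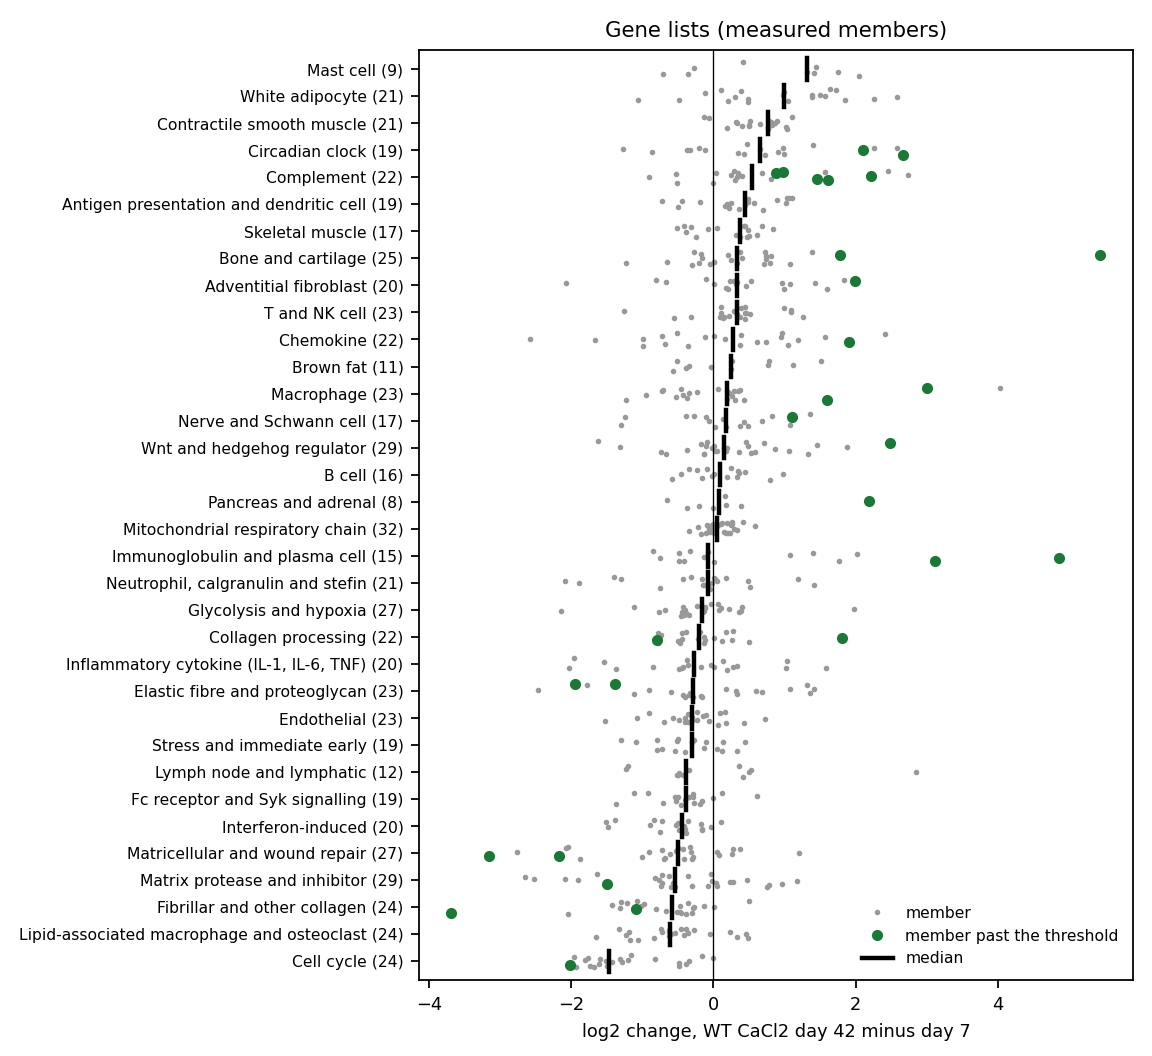
Change between WT CaCl2 day 42 and day 7 (log2 units) of the members of the gene lists other than that of sex-linked genes, 1 row a list in the order of their medians, with called members in green and the median as a black bar. All 24 cell cycle members are below 0 with a median of -1.46, and 5 of 22 complement members are called higher.

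Among leukocyte genes, 2 of 23 macrophage genes were higher, against 0.731% of all genes: Clec10a, a lectin, with a change of 1.60, and the haemoglobin scavenger receptor gene Cd163, at least 1.9-fold higher because no day 7 array was well above background. The general macrophage genes Cd68 and Adgre1 had changes of -0.72 and -0.24. Retnla, a product of alternatively activated macrophages, had levels of 4.17, 3.59 and 5.24 at day 42, against 0.29, 0.79 and -0.20 at day 7, and missed the threshold (limma adjusted p = 0.0963). Of 22 chemokines, Ccl11, the eosinophil attractant eotaxin, was higher by 1.90 ± 0.39. The inflammatory genes Il1b, Il6 and Ccl2 had changes of -0.44, -2.03 and -0.99 and did not pass.
Syk, the tyrosine kinase that signals from antibody receptors, had levels of 2.89, 2.77 and 2.61 at day 42, against 3.31, 3.94 and 3.77 at day 7. The groups did not overlap, but the change of -0.91 ± 0.36 did not pass (limma adjusted p = 0.303). Of the 19 measured Fc receptor and Syk signalling genes limma called 0 in either direction, and 17 had a negative change.

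Of 25 bone and cartilage genes 2 were higher, Ibsp and Chad, a cartilage matrix protein, whose change was 1.77 ± 0.37. The share of all genes called higher was 0.731%, here and for the lists that follow. Spp1, which encodes osteopontin, had levels of 5.64, 5.73 and 5.03 at day 42, against 6.23, 6.70 and 7.16 at day 7, and did not pass (limma adjusted p = 0.746). Of 20 adventitial fibroblast genes 1 was higher, Gsn, an actin-severing protein, with levels of 8.21, 7.85 and 8.85 at day 42, against 6.50, 6.47 and 5.99 at day 7. S100b was the 1 of 17 nerve and Schwann cell genes that was higher, by 1.1. Amy2a5 was the 1 of 8 pancreas and adrenal genes, by 2.20, and its probe may share signal with near-identical amylase genes.
The other 19 of 35 lists had no call, with medians between -0.61 and 1.31. Contractile smooth muscle genes had a positive change in 19 of 21, with a median of 0.76, and interferon-induced genes a negative change in 19 of 20, with a median of -0.45. White adipocyte genes had a median of 0.99 and mast cell genes one of 1.31. The summed level of the adipocyte list, as a mean over members, ran from 1.67 to 1.97 at day 42, against 0.77 to 1.05 at day 7. That of the smooth muscle list ran from 2.68 to 3.78 at day 42, against 2.35 to 3.32 at day 7. The part of these shifts in the single-gene results was not tested.

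Set beside the aorta before surgery, the called genes were counted by where the pre mean lay. Of the 56 lower genes, 54 had a pre mean below day 7, against 54.0% of all genes. Closer to pre at day 42 than at day 7 were 48 of the 56 (85.7%), against 56.3% of all genes. Of the 49 immunoglobulin genes called higher, 44 had a pre mean below day 7 and 0 were closer to pre at day 42. Of the 84 other RefSeq genes called higher, 60 (71.4%) had a pre mean above day 7, against 46.0% of all genes. Only 42 of the 84 (50%) were closer to pre at day 42, below the 56.3% of all genes. Cthrc1 had a mean level of -3.48 before surgery, against -0.58 at day 42 and 2.59 at day 7. Postn, by contrast, was below its pre level of 5.74 at day 42, with a mean of 3.82. The pre arrays lay on another slide and the day 7 arrays enter both differences, so these counts are a description with no test.

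**Figure D5:**
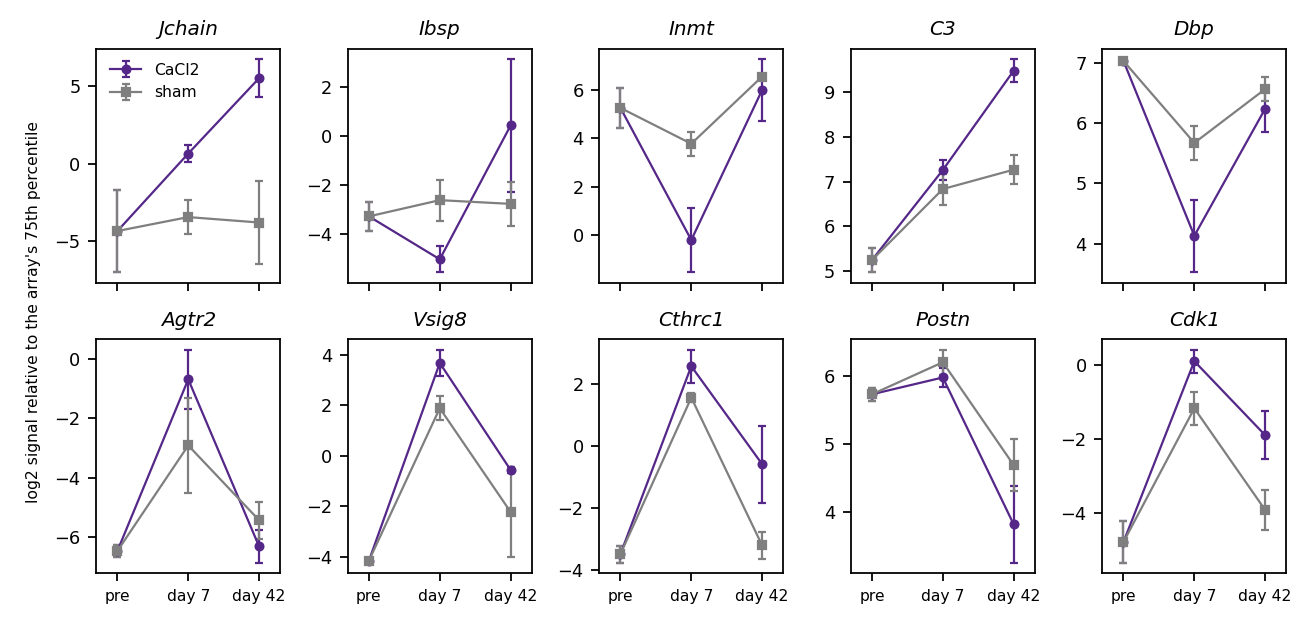
Mean level ± SD of 10 called genes in WT aortas before surgery, at day 7 and at day 42 (log2 units relative to the array's 75th percentile), after CaCl2 (circles, n = 3) and after sham surgery (squares, n = 3, and n = 2 at day 42). Jchain lies at 0.66 at day 7 and 5.52 at day 42 after CaCl2, and at -3.44 and -3.79 after sham surgery.

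In uMT aortas the same 2 times after CaCl2 gave 900 genes higher and 1025 lower, 3.87% and 4.41% of those tested. Of the 78 immunoglobulin features, 4 were higher and 0 lower there, against 3.24% and 3.55% of all probes. Their median change was 0.73, and 58 of 78 were well above background on no uMT day 42 array. Jchain was well above background on no uMT CaCl2 array at either time. The genotype difference of the time change, WT minus uMT, passed for 9 genes higher and 1 lower (0.0387% and 0.0043%), and 3002 genes had an unadjusted p under 0.05. At the probe level 1 of the 78 immunoglobulin features was higher in this difference, against 0.015% of all probes. The following p-values are adjusted over all genes. The gamma polypeptide passed (limma adjusted p = 0.0339), but it was well above background on no uMT CaCl2 array, so no size of the difference is given. Vipr2, a receptor of vasoactive intestinal peptide, had levels of 1.22, 1.54 and 1.17 at day 42, against -0.93, -0.95 and -1.08 at day 7 in WT, and in uMT 0.55, 0.90 and 1.17 at day 42, against 0.86, 0.98 and 0.41 at day 7. Only the WT day 7 arrays were low, and the difference was 2.17 ± 0.32 (limma adjusted p = 0.0146). Its probe, chr12:117384455-117384514, lies 136550 bases beyond the end of the heavy chain span. The Vipr2 difference passed in 22 of 26 alternatives. Duoxa2 also passed (limma adjusted p = 0.0382), but in 10 of 25 alternatives, and it was well above background on no WT day 7 and no uMT CaCl2 array, so no size is given.
These counts rested on single arrays. Without uMT day 7 replicate 1 the genotype difference was called for 1130 genes. Without WT day 7 replicate 3 limma called 0, with 2903 genes at an unadjusted p under 0.05. The WT CaCl2 arrays lay on slide 3 and the uMT CaCl2 arrays on slide 1. Each time change was thus taken within 1 slide, but a time change that depends on the slide cannot be told apart from genotype. Genes called in both genotypes included Cthrc1, with a change of -3.16 in WT and -4.55 in uMT, C3 at 2.21 in WT and 2.11 in uMT, and Postn at -2.17 in WT and -2.65 in uMT.

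Set against the same interval after sham surgery in WT, where day 42 has 2 arrays because its dim replicate 2 was left out, the time change after CaCl2 was larger for 14 genes and smaller for 0 (0.0602% and 0%), with an unadjusted p under 0.05 for 780 genes. Of the 14, 5 were described as immunoglobulin genes, and at the probe level 5 of the 78 features passed, against 0.0421% of all probes. With p-values adjusted over all genes, heavy variable V14-3 differed by 3.76 ± 0.60 (limma adjusted p = 0.0082) and Vipr2 by 2.54 ± 0.34 (limma adjusted p = 0.0044). The gamma polypeptide also passed (limma adjusted p = 0.0215), but no sham array was well above background there. For Postn the difference was -0.65, for Cdk1 0.75 and for Inmt 3.43, and none of these passed. With all 30 arrays in the fit, and so with the dim sham array, limma called 0 genes in this test, with 1542 at an unadjusted p under 0.05. Without sham day 42 replicate 3 it called 1, in a fit where the lone sham day 42 array is assumed to vary like the other groups. The sham arrays used lay on slide 2, except sham day 42 replicate 3, which shared slide 3 with the CaCl2 arrays. With slide as a fixed term 1 gene was called in place of 14.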

How the data were processed

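The gene expression arrays were scanned one per sample. Per the file headers, the deposited intensity values were made with Agilent Feature Extraction 10.7.1.1, whereas the submitters' processing notes name version 9.5.1.1. Per the file headers the processed intensity is background-subtracted. The authors also deposited a matrix on a linear intensity scale. Its columns hold the same sorted values to within 0.0784%, all with a median of 24.2, and it served as an alternative. Its exact steps are not given in the sources used here. The labels name 2 different RNA purification kits, so the kit is uncertain.

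Here the log2 of each processed intensity minus the array's 75th percentile was used. Spots of 1 probe were averaged, control spots and 24 probes with outlier flags were left out, and probes well above background on all 3 arrays of at least 1 group were kept, 33224 of 55657. No spot was saturated. A gene was represented by its brightest kept probe. Of the 55657 probes, 27221 were named through a RefSeq accession, 3581 by symbol, 565 by an older symbol and 24290 by the file. A model with 1 mean per group was fitted to 29 arrays with limma 3.58.1 in R 4.3.3, leaving out WT sham day 42 replicate 2, which was far dimmer (75th percentile 36.1) and alone on its slide. The test was checked on simulated data. Where no array of the dimmer group was well above background, only an at-least fold is given between day 42 and day 7. The precision is limited by the 3 arrays per group.

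Genes were named as the 15 largest rises and falls among called genes with a symbol, detection on all arrays of the higher group and no overlap, the 5 largest each way in each difference between time changes, up to 4 members of each of 35 gene lists by moderated t, and 16 genes fixed by name. Any other was chosen after its values were seen. A few genes these rules select are not reported here. The comparison and the lists were chosen with earlier results of these data known. No set test was run. Promoters are from RefSeq (GRCm38.p6). Of the deposited columns of per-sample values, 0 were left unused. The alternatives were other background corrections, normalizations, filters and probe rules, the arrays fitted, slide and replicate number as blocks, and leaving out each array.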

Additional observations from a re-analysis of the deposited data

Results flagged for a closer look

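The time change after CaCl2 (day 42 minus day 7) differed between WT and uMT for 10 genes by the interaction test (limma, adjusted p under 0.05). Those higher in WT were the gamma polypeptide at 5.16, the cDNA sequence AB069917 at 4.51, 2 predicted genes at chr12:115232794-115232853 and chr12:116446433-116446492 at 3.61 and 3.22, and kappa variable 4-70 at 3.06. The 3 that are not described as immunoglobulin all lie inside the heavy chain span. A lincRNA feature at chr9:89168696-89168755 differed by 3.27, Duoxa2 by 2.74, Vipr2 by 2.17 and Phgdh, an enzyme of serine synthesis, by 1.39. Ccrl2, a chemokine receptor-like protein, differed by -1.51. The gamma polypeptide, AB069917, both predicted genes and Duoxa2 were well above background on no uMT CaCl2 array, and AB069917, the predicted gene at chr12:115232794-115232853 and Duoxa2 on no WT day 7 array either. Their values are fitted differences against background and not measured sizes.

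The time change differed between CaCl2 and sham in WT for 14 genes by the same kind of test. These were heavy variable V1-9 at 5.53, the gamma polypeptide at 5.34, AB069917 at 4.66, the heavy variable segment at chr12:116842179-116842238 at 4.42, heavy variable V14-3 at 3.76 and kappa variable 4-70 at 3.74. Predicted genes in the heavy chain span at chr12:117100209-117100268, chr12:116699334-116699393, chr12:116446433-116446492 and chr12:116745936-116745995 differed by 4.82, 4.13, 4.12 and 3.48. An undescribed probe without coordinates differed by 3.99, the chr9 lincRNA by 3.37, Vipr2 by 2.54 and a lincRNA at chr12:109994894-109994953 by 2.51. Of these, V14-3, kappa variable 4-70, the predicted gene at chr12:116745936-116745995, the undescribed probe, the chr9 lincRNA and Vipr2 were well above background on both sham day 42 arrays used. The others were so on neither, and their values are likewise fitted against background. The cause of these differences was not tested.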

How the results depend on the processing

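Of 1057 values of called genes under the alternatives, 847 kept their call, 210 missed the threshold and 0 changed sign. With only the compared groups, 79 genes were higher, 23 lower and 8 immunoglobulin features higher, the genotype and sham differences had 0 (2423 genes at unadjusted p under 0.05) and 3 calls and uMT 3. With genes detected on at least 15 arrays, 73 were higher, 31 lower and 6 immunoglobulin features higher, with 5 and 6 calls for the differences. That filter removes genes detected in few groups. With all 30 arrays, 106 were higher and 22 lower, both differences had 0 calls (1127 and 1542 at unadjusted p under 0.05) and uMT 226. With array weights, whose fit stopped before convergence, these were 742, 730, 4889, 154 and 9292. Normexp with quantile normalization gave 160 lower, 92 genotype and 31 sham calls. Quantile normalization gave 59 and 30, the authors' matrix 54 and 28, and the percentile over probes detected on all arrays 22 sham calls. Without a filter there were 4 genotype calls, and the median change of all genes was 0.121. Slide as a fixed term gave 5 and 1. The replicate block gave 153 higher, 55 lower, 49 immunoglobulin features and 3 genotype calls. Same-numbered samples correlated at 0.269, -0.146 and 0.0778 and not every sample did so best with its own number, so they share only a number. Leaving out 1 array gave 80 to 169 higher, 15 to 110 lower, 30 to 56 immunoglobulin features, 0 to 1130 genotype, 1 to 41 sham and 379 to 2682 uMT calls. The lymph node list's median of -0.38 ran from -0.48 to 0.042 over the 20 alternatives, with 0.042 without WT CaCl2 day 42 replicate 1. The causes were not tested. Probes near background limit the folds to bounds.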

Other observations

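The genes here passed the test between day 42 and day 7 but belong to no list or rule, and were chosen after their values were seen. Meg3, a long noncoding RNA expressed from the maternal chromosome, had levels of 3.89, 4.11 and 3.12 at day 42, against 5.58, 5.23 and 5.0 at day 7 (change -1.56 ± 0.29, limma adjusted p = 0.0060). In the same region of chromosome 12, lincRNA features at chr12:110865304-110865363 and chr12:110883878-110883937 had changes of -1.48 and -1.59 and also passed. Igf2r, an imprinted receptor that clears insulin-like growth factor, had a change of -1.06 and Cdkn1c, an imprinted cell cycle inhibitor, one of 1.17.

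The angiogenin family genes Ang, Ang2 and Ang4 had changes of 1.08, 1.11 and 0.96 that passed. They are related genes, and whether their probes report the same RNA was not tested. Pla2g2d, a phospholipase of lymphoid dendritic cells, had levels of -0.92, -1.09 and -0.04 at day 42, against -3.61, -3.0 and -2.73 at day 7. Its change was 2.44 ± 0.41 in WT and 3.36 in uMT. Efemp1, a fibulin of the extracellular matrix, was higher by 1.66 in WT and by 1.58 in uMT, and Apod, a lipocalin, by 1.68 in WT and 2.0 in uMT. The difference between the genotypes did not pass for any of these 3.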
